A study of Mus musculus with 12 samples.

Results

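Cardiac muscle contracts by means of the sarcomere, in which thick filaments of myosin slide along thin filaments of actin. Myh6 and Myh7 encode the alpha and beta heavy chains of cardiac myosin, the motors themselves. Myl2 and Myl3 encode the regulatory and essential light chains of the ventricle, Myl7 the regulatory light chain of the atrium, and these proteins bind the myosin lever and tune it. Actc1 encodes cardiac actin, Tnnt2 and Tnni3 the cardiac troponins T and I that make the thin filament sensitive to calcium, Mybpc3 a thick filament protein that brakes the crossbridges, and Ttn the giant elastic titin. The adult mouse ventricle relies on the alpha heavy chain, and the wall of the mouse pulmonary veins carries a sleeve of striated muscle of the atrial kind into the lung.

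These 10 genes were chosen by name, and all were found among the 18193 genes with a probe set of their own. They were read by 20 probe sets, 6 of them for Ttn, 3 each for Tnnt2 and Myl3, 2 for Myh6 and 1 each for the other 6 genes, and another 2 probe sets were shared by Myh7 and Myh6 and kept apart. Transcripts were measured on 12 Affymetrix mouse arrays, with heart, lung, thymus and liver taken from p53−/−, p66−/− and WT mice, each array holding RNA pooled from 4 mice. All the mice were of the Sv/129 strain and 2 months old, p53−/− mice lacking the tumour suppressor p53 and p66−/− mice lacking p66Shc, an isoform of Shc1 tied to oxidative stress. Both are deletions in the whole animal, the plots call them p53KO and p66KO, and each tissue of each genotype had 1 array. Values are log2 signals in which a difference of 1 is 2-fold, and where a gene had several probe sets the brightest over the 12 arrays stands for it. The brightness of a probe set depends on its probes, so a level is compared only with the same probe set on other arrays, never with another gene.

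Each organ carried its defining markers, but some arrays also held transcripts of other organs. The 7 salivary gland markers averaged 13.18 on the WT thymus array, against 5.35 on the p53−/− and 5.46 on the p66−/− thymus arrays, and 8.48 on the WT heart array. All 14 fast skeletal muscle markers were 2-fold or more higher on the p53−/− than on the WT thymus array. The 6 lung epithelial markers averaged 6.83 on the p53−/−, 9.34 on the p66−/− and 8.23 on the WT thymus array. Against WT, 3 of the 6 lay higher in p53−/− thymus (median -0.12) and 6 of 6 in p66−/− thymus (median 1.02). The one that fell most in p53−/− was Scgb1a1, the club cell secretoglobin, at 7.13 on the p53−/−, 13.22 on the p66−/− and 11.87 on the WT thymus array. The 7 hepatocyte markers averaged 7.10 on the p53−/−, 9.97 on the p66−/− and 11.03 on the WT lung array. In organs taken whole, fewer cells of a type and less RNA per cell cannot be told apart.

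Sequences around an annotated start of 4 of the genes are shown because the pairs they form, alpha against beta heavy chain and atrial against ventricular light chain, are the ones whose levels diverged between organs. Each is a window from 250 bases before to 50 bases after a RefSeq gene start on GRCm38.p6, read along the gene's strand, and for Myh7 and Myl2, which have 2 annotated starts, the one farther downstream is given. The starts shown for Myh6, Myh7 and Myl2 lie inside the span that RefSeq annotates for the gene, so part or all of these windows is not upstream of its outermost 5′ end. Capitals mark letter matches, at any position and on either strand, to the motifs of the TATA box (TATAAA) and the M-CAT element (CATTCC). They also mark matches to the core of GATA sites (GATAA), the MEF2 site and the CArG box, the site of serum response factor. Myh6 lies at chr14:54966558-54966857 and Myh7 at chr14:54994500-54994799, both on the minus strand, Myl7 at chr11:5898733-5899032 on the minus strand and Myl2 at chr5:122092939-122093238 on the plus strand.
Myh6: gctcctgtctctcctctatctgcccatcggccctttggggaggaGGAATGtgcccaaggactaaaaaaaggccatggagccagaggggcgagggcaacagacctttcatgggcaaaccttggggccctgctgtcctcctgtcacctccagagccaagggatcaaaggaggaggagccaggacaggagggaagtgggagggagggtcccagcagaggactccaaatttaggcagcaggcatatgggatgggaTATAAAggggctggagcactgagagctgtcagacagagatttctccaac
Myh7: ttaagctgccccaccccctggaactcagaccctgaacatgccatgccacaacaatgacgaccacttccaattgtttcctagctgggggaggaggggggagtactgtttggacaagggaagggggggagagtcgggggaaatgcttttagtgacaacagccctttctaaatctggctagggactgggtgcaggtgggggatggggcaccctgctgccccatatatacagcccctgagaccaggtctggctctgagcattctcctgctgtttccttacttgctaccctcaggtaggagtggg
Myl7: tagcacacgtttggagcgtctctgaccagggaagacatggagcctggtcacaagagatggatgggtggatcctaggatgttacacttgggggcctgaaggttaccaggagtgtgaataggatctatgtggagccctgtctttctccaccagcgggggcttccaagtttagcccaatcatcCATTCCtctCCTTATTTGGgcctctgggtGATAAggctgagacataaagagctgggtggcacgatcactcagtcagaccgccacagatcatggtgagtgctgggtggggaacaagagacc
Myl2: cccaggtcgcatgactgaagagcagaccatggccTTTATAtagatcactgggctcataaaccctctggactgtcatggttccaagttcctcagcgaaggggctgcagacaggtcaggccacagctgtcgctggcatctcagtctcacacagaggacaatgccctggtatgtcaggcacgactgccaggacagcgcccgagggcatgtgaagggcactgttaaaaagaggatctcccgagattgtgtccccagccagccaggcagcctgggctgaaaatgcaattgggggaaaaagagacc

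The 4 windows differed in what they held. The Myh6 window had 1 CATTCC and 1 TATAAA, the Myl7 window 1 CATTCC, 1 CArG box and 1 GATAA, and the Myl2 window 1 TATAAA, while the Myh7 window shown had none of these motifs and its other window 1 CATTCC. Across the 13 windows of the 10 genes, a CArG box was found in 3 genes, Actc1, Myl3 and Myl7, and in 1.63% of all 32851 windows. The MEF2 site was found in Ttn and Mybpc3 and in 3.19% of all windows. CATTCC was found in 6 of the 10 genes and 14.7% of windows, GATAA in 6 genes and 25.4%, TATAAA in 3 genes and 13.6%, and CANNTG, the E-box, in all 10 genes and 72.3%. Different motifs overlapped in 0 places in these windows, and the matches describe letters only.

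All 10 genes were higher in heart than in the mean of lung, thymus and liver. By limma, with Benjamini-Hochberg adjustment over 45037 probe sets, 19 of the 20 probe sets were called higher in heart, against 14.0% of all probe sets, with a median difference of 5.61 against 0.10 over all probe sets. The lowest heart array lay above the highest liver array for 20 of 20 probe sets (29.6% of all), above the highest thymus array for 19 (19.4% of all) and above the highest lung array for 18 (27.9% of all). Myl2 showed the widest gap, 7.97 (SE 0.51, adjusted p = 2.53e-06), and Tnnt2 and Tnni3 followed at 6.93 (SE 0.44) and 6.82 (SE 0.48). Myh6 was higher by 6.28 (SE 0.52), Myl3 by 6.23 (SE 0.19), Ttn by 5.89 (SE 0.37), Mybpc3 by 5.48 (SE 0.14), Actc1 by 5.29 (SE 0.48) and Myl7 by 4.86 (SE 0.56). Myh7 had the smallest gap, 2.11 (SE 0.15, adjusted p = 6.26e-06). The probe set that was not called, a dim one of Ttn, averaged 6.69 ± 0.20 in heart and 6.24 ± 0.12 in liver (SD, n = 3 each).

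**Figure D1:**
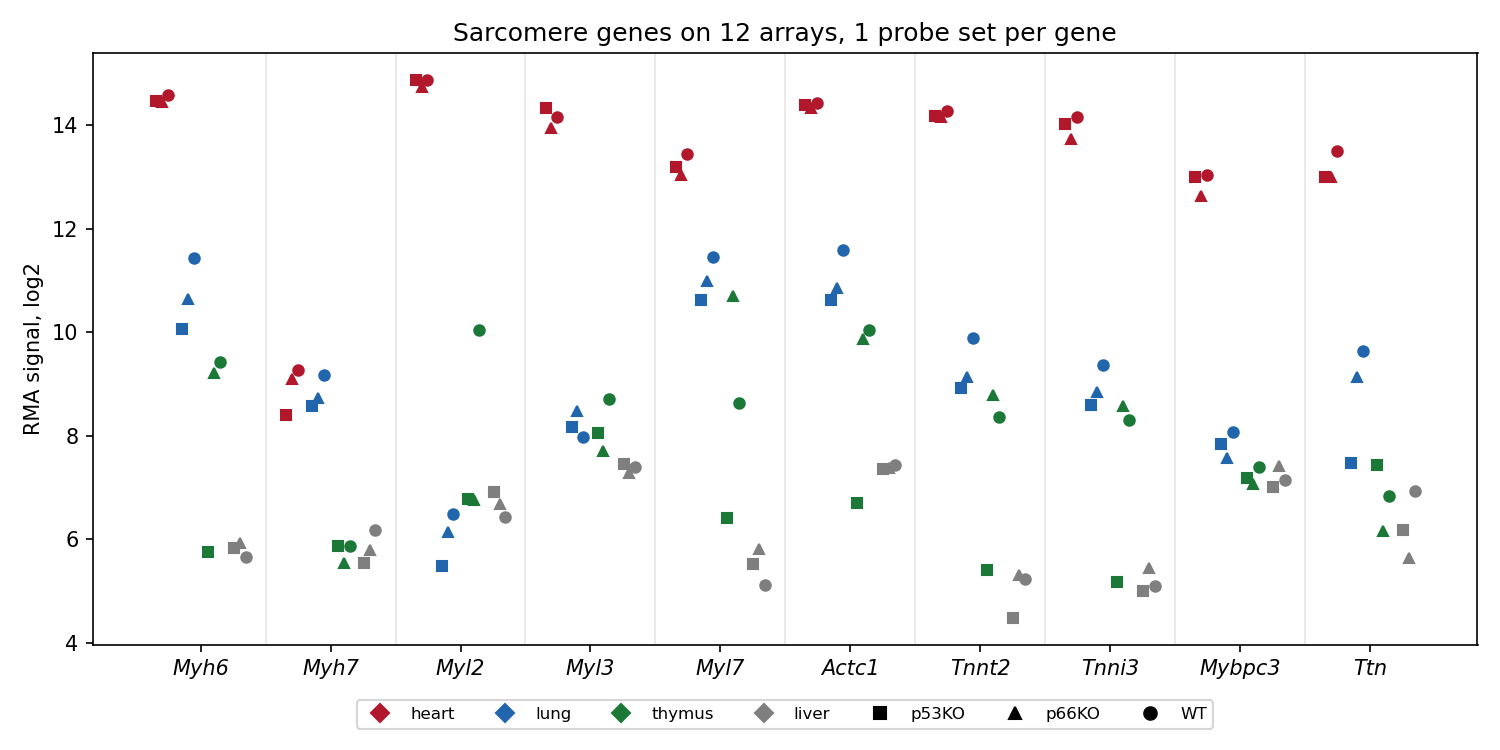
Log2 signal (vertical axis) of the 10 sarcomere genes (horizontal axis) on 12 arrays, coloured by tissue and shaped by genotype, 1 point per array. Heart stands highest for every gene but Myh7, whose lung arrays at 8.57 to 9.17 lie among its heart arrays, and the p53−/− thymus array lies at the liver level for Myh6, Actc1, Tnnt2 and Tnni3.

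The 2 myosin heavy chains differed in how they were shared between organs. Myh6 gave 14.46 in p53−/−, 14.45 in p66−/− and 14.57 in WT heart, so the 3 hearts lay close together. In lung it gave 10.06 in p53−/−, 10.64 in p66−/− and 11.44 in WT mice, below every heart and above every liver, where it lay between 5.67 and 5.94. Myh7 gave 8.39 in p53−/−, 9.09 in p66−/− and 9.26 in WT heart, against 8.57 in p53−/−, 8.73 in p66−/− and 9.17 in WT lung. The heart and lung arrays of the beta chain thus overlapped, whereas thymus at 5.54 to 5.88 and liver at 5.54 to 6.17 lay below both.

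Heart was therefore set against lung directly, a comparison added after the values were seen. It called 18 of the 20 probe sets higher in heart, against 14.3% of all probe sets, and 9 of the 10 genes. Myh7 differed by 0.09 (95% interval -0.32 to 0.51, adjusted p = 0.71 by limma), and Myl7 by 2.20 (SE 0.69, adjusted p = 0.039). Myl2 differed by 8.79 (SE 0.62, adjusted p = 5.53e-06). The Myl7 call was lost in 4 of the alternatives, with adjusted p between 0.051 and 0.088.

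The second Myh6 probe set did not show the lung signal of the first. It gave 11.00, 10.44 and 11.19 in p53−/−, p66−/− and WT heart, and from 3.61 to 3.97 on the 9 arrays outside heart. The probe sets shared by Myh7 and Myh6 split likewise, since the brighter averaged 8.80 ± 0.28 in lung and 5.53 ± 0.47 in liver, and the dimmer 4.16 ± 0.11 in lung and 4.17 ± 0.02 in liver (SD, n = 3 each). These genes are near-identical neighbours on the same chromosome, and how far each probe set reads both of them was not tested.

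In lung, 9 of the 10 genes were above liver. The fit called 12 of the 20 probe sets higher, against 12.8% of all probe sets, with a median difference of 1.45 against -0.06 over all probe sets. The atrial light chain Myl7 led with 5.55 (SE 0.69, adjusted p = 0.00017), followed by Myh6 at 4.90 (SE 0.64), Tnnt2 at 4.30 (SE 0.54), Tnni3 at 3.75 (SE 0.59) and Actc1 at 3.63 (SE 0.58). Myh7 was higher by 2.99 (SE 0.19) and Ttn by 2.50 (SE 0.46), while the smaller differences of Myl3, 0.83 (SE 0.24), and Mybpc3, 0.65 (SE 0.17), lost the call in 4 and 3 alternatives, among them both leaving out the p53−/− arrays. Ttn lost it without the p66−/− arrays, at 2.01 (adjusted p = 0.065). The ventricular light chain Myl2 was the exception, at -0.64 (SE 0.62, adjusted p = 0.54 by limma). It was called lower in lung without the WT arrays, at -0.99 (adjusted p = 0.0070), and without the WT thymus array alone, at -0.64 (adjusted p = 0.042).

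The light chains show the contrast array by array. Myl7 gave 13.19, 13.03 and 13.45 in p53−/−, p66−/− and WT heart, 10.63, 11.00 and 11.46 in the lungs in that order of genotype, and 5.52, 5.81 and 5.12 in the livers. Myl2 gave 14.87, 14.73 and 14.87 in p53−/−, p66−/− and WT heart, 5.48, 6.13 and 6.48 in the lungs and 6.92, 6.67 and 6.43 in the livers. The atrial chain was thus intermediate in every lung, and the ventricular chain was at or below its liver level in p53−/− and p66−/− lung and close to it in WT lung. Between heart and lung Myl7 dropped less than Myl2 by 6.83 in p53−/−, 6.56 in p66−/− and 6.40 in WT mice, a mean of 6.60 ± 0.21 (SD, n = 3 genotypes). With 3 pairs no permutation of signs can reach the threshold, and since Myl2 in lung lay at the liver level the gap is bounded by background signal. Of 34 other sarcomere genes measured, 17 were called higher in lung than in liver, against the 12.8% of all probe sets given above, and 0 lower.

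Of 7 other atrial markers, 3 were called higher in lung than in liver and 4 were not, although all 7 were called higher in heart than in the other tissues. Myl4, the atrial essential light chain, gave 10.46, 10.35 and 10.57 in p53−/−, p66−/− and WT lung, against a mean of 6.13 in liver, a difference of 4.32 (SE 0.71, adjusted p = 0.0012). Sln, sarcolipin, the atrial brake of the calcium pump, differed by 4.21 (SE 0.74, adjusted p = 0.0018). Nppa, the atrial natriuretic peptide precursor, stood at 8.06 in p53−/−, 6.40 in p66−/− and 7.02 in WT lung, and its difference of 1.26 (SE 1.03) was not called (adjusted p = 0.46). The third called was Dkk3, at 1.98 (SE 0.26). Mybphl at 0.18, Bmp10 at -0.20 and Kcnj3 at -0.06 were not called, nor were the ventricular transcription factors Irx4 and Hey2. Irx4 gave 5.58, 5.22 and 5.27 in p53−/−, p66−/− and WT lung and Hey2 4.62, 4.83 and 5.08, and Hey2 stood only 0.49 above liver even in heart.

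**Figure D2:**
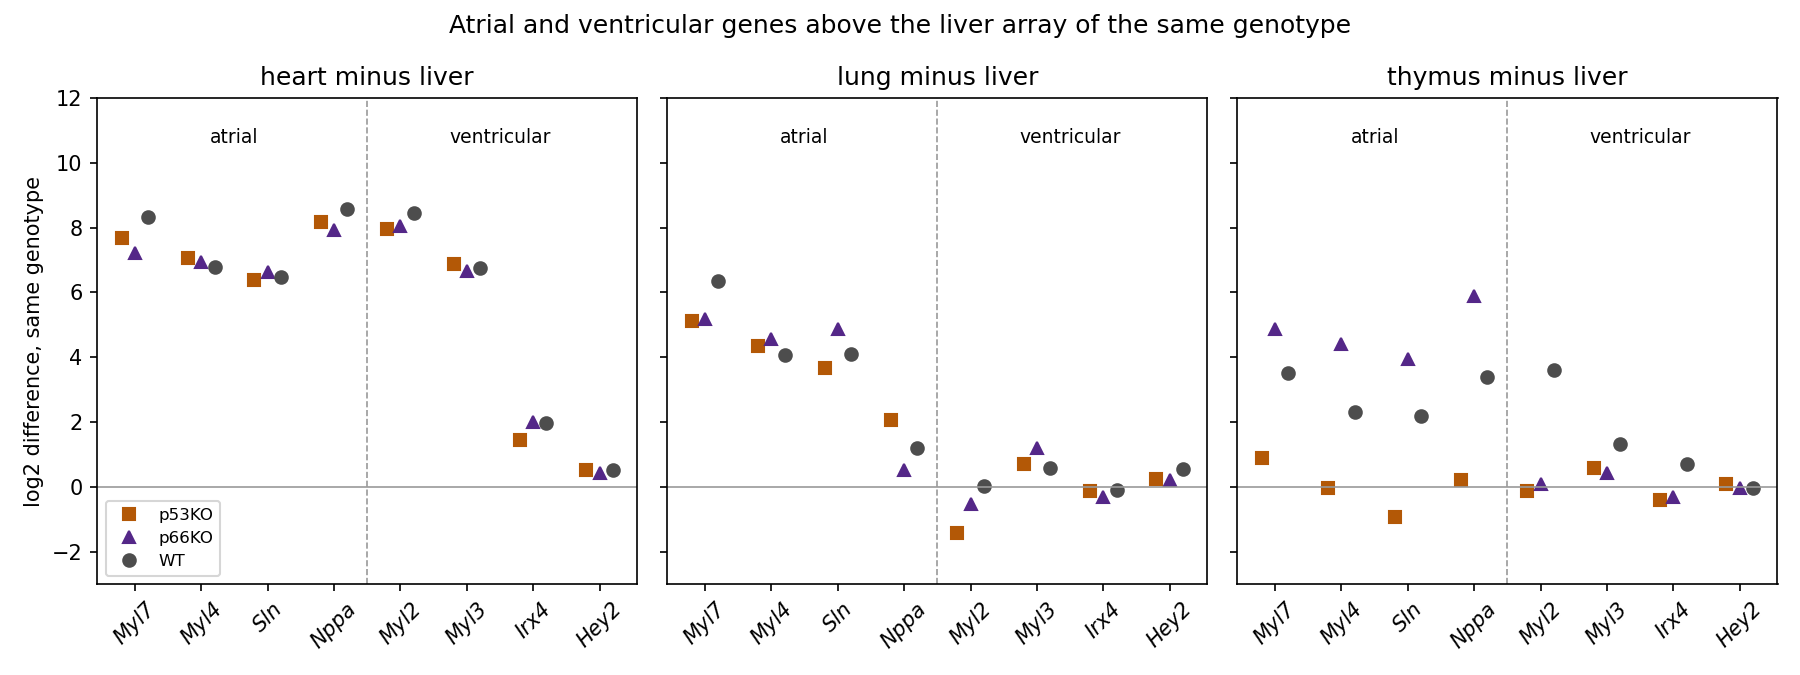
Log2 signal of 4 atrial and 4 ventricular genes minus the liver array of the same genotype (vertical axis), for heart, lung and thymus, 1 point per genotype. In lung, Myl7, Myl4 and Sln stand 3.67 to 6.34 above liver and Myl2 from -1.44 to 0.04; in thymus the p66−/− array has the atrial genes without Myl2, the WT array has both, and the p53−/− array lies within 1 log2 unit of liver for both.

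Other contents of the lung arrays moved with these values. The mean of the 10 genes was 8.63 on the p53−/−, 9.05 on the p66−/− and 9.51 on the WT lung array, the same order as the hepatocyte markers and as the fast skeletal markers at 7.25, 8.24 and 8.34, and the smooth muscle markers averaged 8.37, 8.49 and 8.96. The 3′ minus 5′ signal of the Gapdh control was 0.66 on the p53−/−, 1.32 on the p66−/− and 2.29 on the WT lung array, and that of the actin control 0.96, 1.17 and 1.80. Heat shock genes averaged 9.54, 10.38 and 11.74, while the 18S control ran the other way at 11.31, 7.42 and 6.55. The part of each of these in the lung values was not tested. The 18S control also split other arrays, at 11.31 on the p53−/−, 7.33 on the p66−/− and 11.93 on the WT thymus array. In heart it ran from 10.24 to 10.64 and in liver from 7.05 to 7.45. Its part in comparisons of those arrays was not tested either. Of the 7 smooth muscle markers, all 7 were called higher in lung than in liver. In liver, where hepatocyte markers stood highest, the 10 genes averaged 6.13 to 6.27. The liver arrays were not alike either, with fast skeletal markers at 7.12 on the p53−/−, 6.39 on the p66−/− and 7.28 on the WT array. In each knock-out liver 1 of the 6 lung epithelial markers was 2-fold or more higher than in WT, by 4.27 in p53−/− and 4.48 in p66−/−. These were the largest rises of any gene there, where 17 and 15 of all 18193 genes were 2-fold or more higher. The part of these in the differences from liver was not tested.

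In thymus 5 of the 10 genes were above liver, and the 3 arrays differed widely. The fit called 6 of the 20 probe sets higher than in liver, against 13.9% of all probe sets, belonging to Myl7, Tnnt2, Myh6, Tnni3 and Myl3. Myl7 was higher by 3.09 (SE 0.69, adjusted p = 0.0077) and Tnnt2 by 2.51 (SE 0.54, adjusted p = 0.0063). Actc1, at 1.49 (SE 0.58, adjusted p = 0.097), Myl2, Ttn, Mybpc3 and Myh7 were not called. Without the p66−/− thymus array 3 of 20 probe sets were called, without the p53−/− thymus array 7 and without the WT thymus array 5. Lung was above thymus for 9 of the 20 probe sets and 7 of the 10 genes, against 11.1% of all probe sets, but for 2 of 20 without the WT lung array, for 5 without the p53−/− thymus array and for 12 without the WT thymus array.

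The p53−/− thymus held cardiac transcripts near the liver level. Actc1 gave 6.71 on the p53−/− thymus array, 9.87 on the p66−/− and 10.04 on the WT array, against 7.35 to 7.43 in liver. Tnnt2 gave 5.40, 8.79 and 8.36, and Tnni3 5.17, 8.57 and 8.30, in p53−/−, p66−/− and WT thymus, so the p53−/− array stood apart from the other 2. Myh6 gave 5.76 in p53−/−, 9.21 in p66−/− and 9.43 in WT thymus. Mybpc3 and Myh7, by contrast, differed little between the 3 thymus arrays, from 7.07 to 7.40 for Mybpc3 and from 5.54 to 5.88 for Myh7.

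The light chains separated the p66−/− and WT thymus arrays. Myl7 gave 6.40 in p53−/−, 10.69 in p66−/− and 8.62 in WT thymus, whereas Myl2 gave 6.78, 6.75 and 10.04. The p66−/− thymus thus had the atrial chain highest and the ventricular chain at the liver level, and the WT thymus had both. Of the 7 atrial markers, Nppa took the same order as Myl7, at 6.20 in p53−/−, 11.75 in p66−/− and 9.21 in WT thymus, as did Myl4 at 6.09, 10.21 and 8.82 and Sln at 5.48, 9.64 and 8.57. Mybphl (6.26, 6.54 and 6.76), Bmp10 (5.96, 5.74 and 6.16) and Kcnj3 (6.60, 7.09 and 7.48) were lower in p66−/− than in WT thymus, and Dkk3 gave 6.56, 7.29 and 6.48. Between heart and thymus Myl7 dropped less than Myl2 by 1.30 in p53−/−, 5.64 in p66−/− and 0.01 in WT mice, a mean of 2.32 ± 2.95 (SD, n = 3 genotypes), so the spread exceeded the mean.

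**Figure D3:**
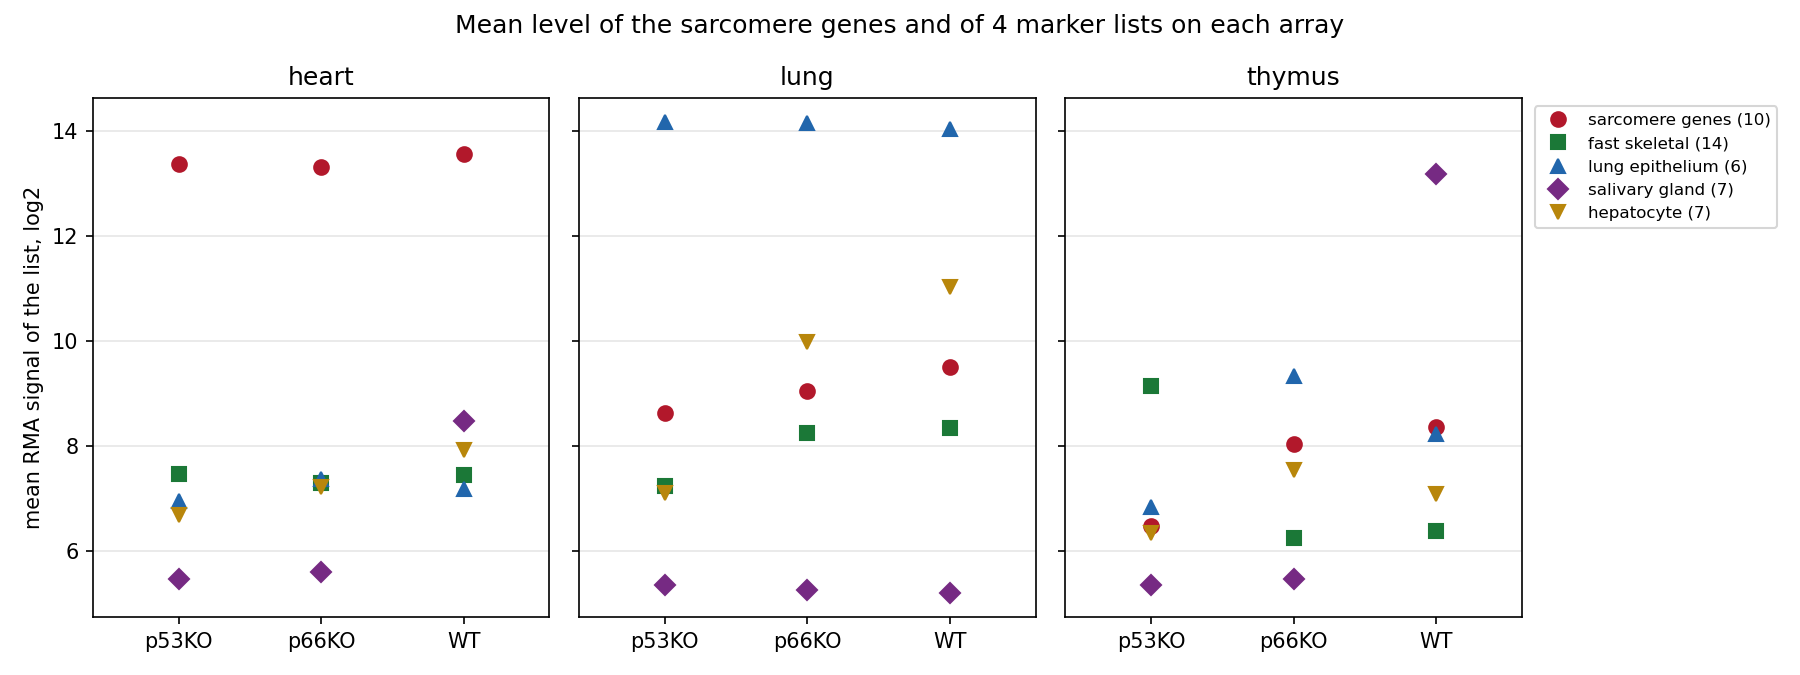
Mean log2 signal (vertical axis) of the 10 sarcomere genes and of the fast skeletal, lung epithelial, salivary gland and hepatocyte lists, for each genotype (horizontal axis) in heart, lung and thymus, 1 array per point with the number of genes in brackets. The sarcomere mean on the thymus arrays was 6.47 in p53−/−, 8.04 in p66−/− and 8.36 in WT mice, beside fast skeletal means of 9.15, 6.26 and 6.38.

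Against WT across the 4 tissues, no member was called in either knock-out. For p53−/− 0 of 20 probe sets passed, as did 0.0% of all 45037, and for p66−/− 0 of 20, again with 0.0% of all. With an intensity trend in the fit 0 of 20 passed in each knock-out as well. At an unadjusted p under 0.05, 4 of the 20 were lower in p53−/−, against 5.52% of all probe sets, and 0 in p66−/−, against 2.10%. Those 4 read Myh7, at -0.53 (SE 0.16, adjusted p = 0.34), Tnnt2, at -1.20 (SE 0.47, adjusted p = 0.43), Myh6, at -1.25 (SE 0.55, adjusted p = 0.48), and a dim probe set of Ttn. The largest p66−/− values were -0.88 (SE 0.54) for Myl2 and -0.74 (SE 0.40) for Ttn, neither of which passed. Without the thymus arrays 1 member was called in p53−/−, Myh7 at -0.70 (adjusted p = 0.046), with 1.20% of all probe sets called lower.

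Within heart, the brightest probe sets of the 10 genes differed from WT by less than 2-fold in the knock-outs, with 1 array per group and hence no test. Their signals there reached 14.87, near the series maximum of 15.41, and whether differences are compressed at that level was not tested. The dimmer Myh6 probe set lay at -0.18 in p53−/− and -0.75 in p66−/− heart, against -0.11 and -0.12 for the brightest. By the brightest probe sets, differences across the 10 genes ran from -0.87 to 0.17 in p53−/− (median -0.11). In p66−/− they ran from -0.49 to -0.10 (median -0.19), and 0 genes in either knock-out were 2-fold or more lower. The widest in p53−/− was Myh7 at -0.87, followed by Ttn at -0.49, and in p66−/− Ttn at -0.49 and Tnni3 at -0.42. Of the 20 probe sets, 2 were 2-fold or more lower in p53−/−, against 2.12% of all probe sets, and 2 in p66−/−, against 1.73%, and they were the same 2 dim probe sets of Ttn. The first gave 7.75 in p53−/− and 9.13 in p66−/− heart and 10.68 in WT heart, and the other 7.85, 8.39 and 10.01 in the same order. The bright Ttn probe set gave 13.00, 13.00 and 13.49, the same direction with a smaller difference.

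A dim probe set of Tnnt2 ran the other way. It gave 7.46 in p53−/−, 7.56 in p66−/− and 6.48 in WT heart, while the bright one gave 14.17, 14.16 and 14.28. It made 1 of 20 probe sets 2-fold or more higher in p66−/−, against 0.258% of all, and 0 of 20 in p53−/−, against 0.133%. The WT heart array is the one with salivary transcripts, with heat shock genes at 9.20 on the p53−/−, 9.37 on the p66−/− and 10.97 on the WT heart array, and the part of either in these values was not tested. Of 34 other sarcomere genes, 1 was 2-fold or more lower in p53−/− heart, against 378 of all 18193 genes, a similar share. In p66−/− heart 0 were, against 304 of all genes. The 1 gene was Myot, myotilin of the Z-disc, at 7.66 in p53−/− and 8.86 in p66−/− against 9.19 in WT heart.

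**Figure D4:**
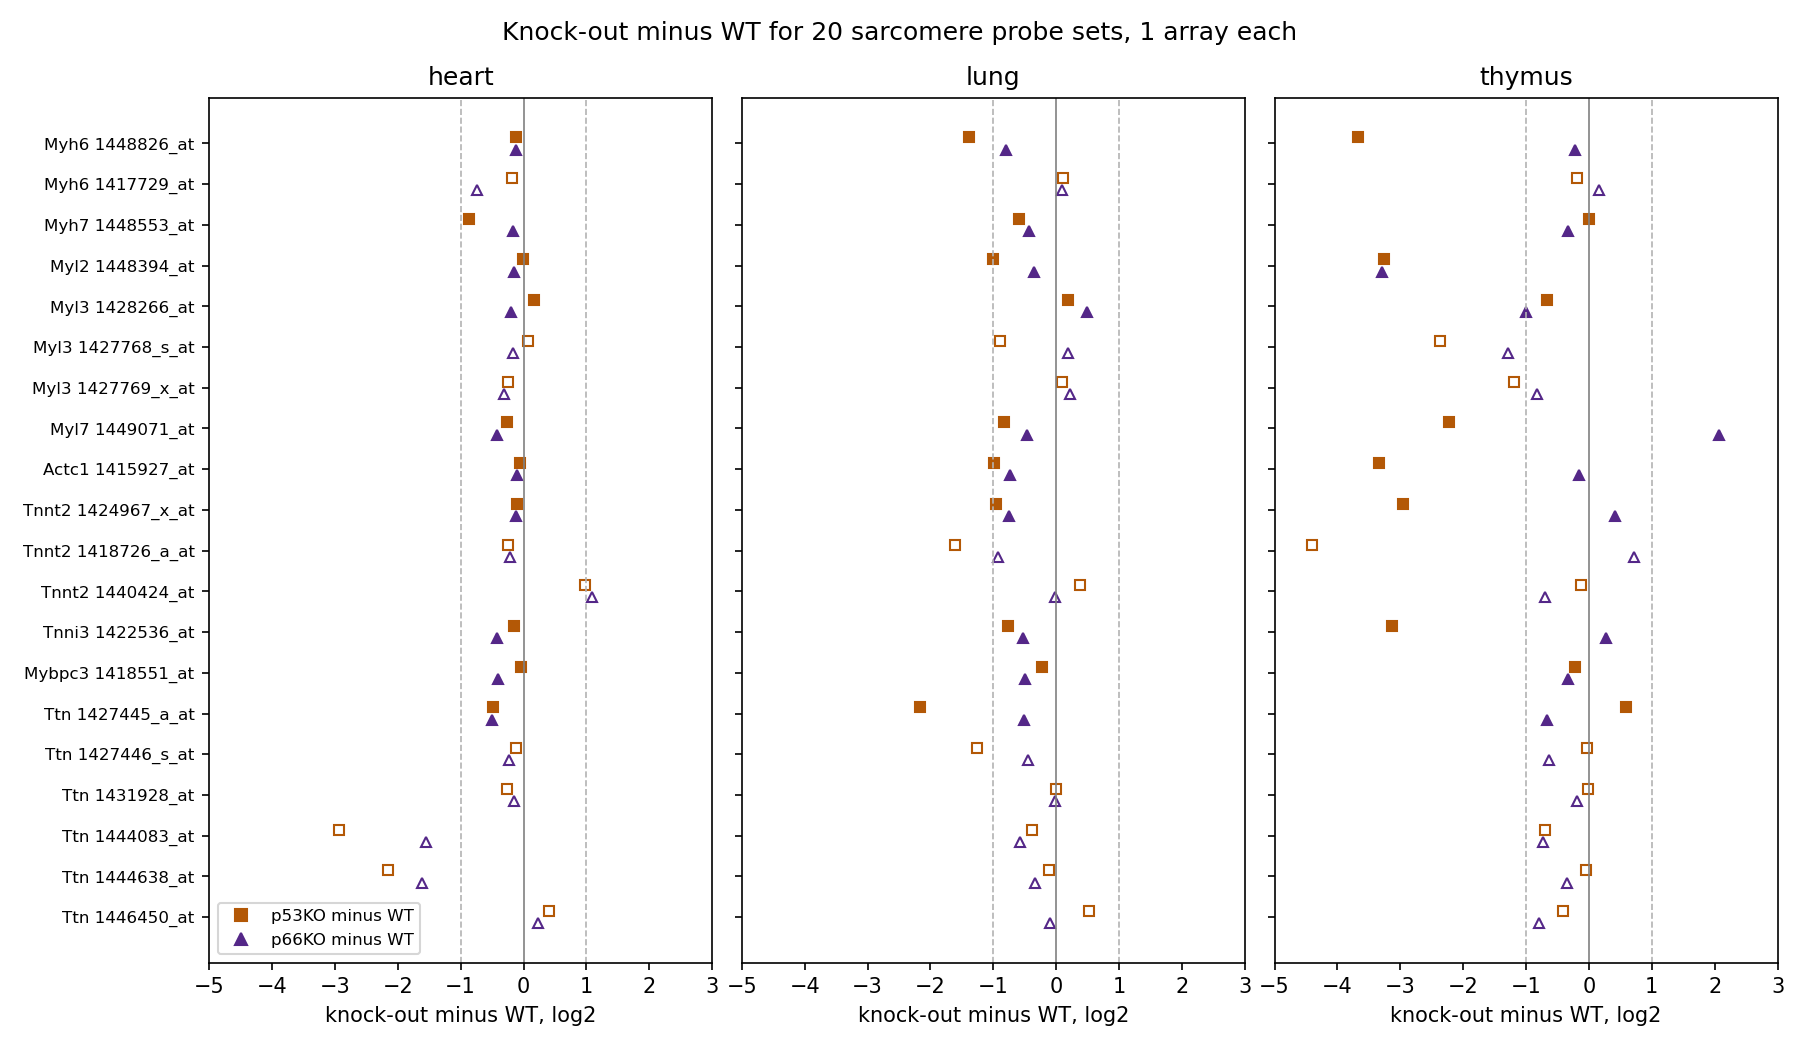
Knock-out minus WT difference (horizontal axis, log2) of 20 probe sets (vertical axis) in heart, lung and thymus, squares for p53KO and triangles for p66KO, filled for the probe set that stands for its gene and with dashed lines at 2-fold. In heart, 2 dim Ttn probe sets lie at -2.93 and -2.16 in p53KO and a dim Tnnt2 probe set at 0.98 in p53KO and 1.08 in p66KO, and thymus p53KO points reach -4.41.

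The medians over the 10 genes lay farther below WT in lung than in heart in both knock-outs. In thymus the median was -2.59 in p53−/− and -0.28 in p66−/−, the latter close to the -0.19 of p66−/− heart. In liver it was -0.08 in p53−/− and 0.16 in p66−/−. In lung, 4 of 20 probe sets were 2-fold or more lower in p53−/−, against 4.49% of all, and 0 of 20 in p66−/−, against 0.393%. The median over the 10 genes was -0.90 in p53−/− lung and -0.51 in p66−/− lung. Ttn differed by -2.17 and Myh6 by -1.38 in p53−/− lung, and 9 of 10 genes lay below WT in each knock-out. Of all 18193 genes, 10305 lay above WT in p53−/− lung and 9359 in p66−/− lung. Beside them, the median of the hepatocyte markers was -3.93 in p53−/− lung and -0.86 in p66−/− lung.

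In thymus, 9 of 20 probe sets were 2-fold or more lower in p53−/−, against 3.48% of all, and 0 were higher, against 7.63%. In p66−/− thymus 3 were lower, against 3.76%, and 1 higher, against 10.3%. The p53−/− values were -3.67 for Myh6, -3.33 for Actc1, -3.26 for Myl2, -3.13 for Tnni3, -2.96 for Tnnt2 and -2.22 for Myl7. The brightest Ttn probe set lay at 0.59, above WT, but the other Ttn probe sets ran from -0.71 to -0.02. In all, 19 of the 20 probe sets lay below WT in p53−/− thymus. In p66−/− thymus Myl2 lay at -3.29 and Myl7 at 2.07. In liver 0 of 20 were 2-fold or more lower in p53−/−, against 0.582%, and 1, of Ttn, in p66−/−, against 0.451%. On that p66−/− array 4 of the 14 fast skeletal markers were also 2-fold or more lower than WT, against 55 of all 18193 genes.

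Whether thymus differed from the other 3 tissues was tested by adding a term for it to the limma fit. Each thymus arm is 1 array that this fit matches exactly, so its spread is assumed to be that of the other 3 tissues. On that assumption the p53−/− effect in thymus was called different for 9 of the 20 probe sets, against 13.0% of all, and the p66−/− effect for 3 of 20, a share near the 15.9% of all. For Actc1 the p53−/− effect was -3.33 in thymus and -0.37 elsewhere, a difference of -2.96 (SE 0.37, adjusted p = 0.0011). For Myl2 the p66−/− effect was -3.29 in thymus and -0.08 elsewhere, a difference of -3.20 (SE 0.46, adjusted p = 0.0026). The same terms for heart, lung and liver cannot be set beside these, because they leave the differing thymus arrays in the residual. For Actc1 in p53−/− the SE was 1.22 in heart, 1.28 in lung and 1.22 in liver, against 0.37 in thymus. How far the effects in these 3 tissues stand apart was therefore not settled. In heart the widest p53−/− differences from the other tissues were -2.47 and -2.06, for 2 dim probe sets of Ttn. The WT thymus array enters every such difference, and the part of its salivary content was not tested.

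The genes whose profiles lay nearest the members were themselves muscle genes in part. Likeness was the root mean square difference, in log2 units, between a gene's centred profile and the mean centred profile of the 10 members. Over the 12 arrays the 8 nearest were Tnnc1, cardiac and slow troponin C, at 0.28, Myoz2, a Z-disc calsarcin, at 0.51, Smpx at 0.57, Fabp3, the heart fatty acid binding protein, at 0.59, Ankrd1 at 0.67, Mb, myoglobin, at 0.74, Sh3bgr at 0.74 and Sspn at 0.76. Among the members the distance ran from 0.52 for Actc1 to 1.79 for Myl2, with Myh7 at 1.78. Over the 9 arrays outside heart the nearest was Myl9, a smooth muscle regulatory light chain, at 0.18, ahead of Tnnc1 at 0.31, Rcn1 at 0.32, Lpar1 and Procr at 0.35, Mfap5 and Pgap4 at 0.37 and Fgl2 at 0.38. Myl9 gave 9.17, 9.46 and 9.95 in p53−/−, p66−/− and WT lung and 6.81, 8.35 and 8.45 in thymus. Because it was picked for nearness on these same arrays, its likeness to the members' mean there follows from the choice.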

How the data were processed

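RMA signals on the log2 scale were deposited, 1 for each probe set and array. The submitters' processing notes name Partek 6.5 and RMA, a method that corrects background, equalises the distributions of the arrays and summarises probes by median polish. Per the labels RNA was extracted with Trizol and labelled by one-cycle amplification, and the pooled mice are the only biological sampling. The 10 genes and the gene lists were chosen with earlier results of these data known.

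Of 45101 probe sets, 64 controls were left out. Among 45037 that remained, the platform annotation gave 1 symbol to 34945, several to 932 and none here to 9160. The Entrez numbers of 34741 probe sets were matched to RefSeq (GRCm38.p6), used for names alone. Signals ran from 3.26 to 15.41, array means from 6.55 to 6.59 and array SDs from 1.72 to 1.99, and the number of arrays limits the precision.

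limma 3.58.1 in R 4.3.3 was fitted to all 12 arrays with tissue and genotype as additive terms (6 residual degrees of freedom), with Benjamini-Hochberg adjustment and a threshold of 0.05, and with 1 term more for each knock-out in a tissue to test that tissue (4 residual degrees of freedom). The 3 arrays of a tissue differ in genotype and pools of a genotype may share mice, so that p-values measure the spread between these arrays. Within a tissue, the WT value was subtracted and differences were counted at 2-fold, without a test. Genes of other lists were named when among the 4 with the largest difference in the tissue or pair described, or when atrial or ventricular, and the 8 nearest profiles were named. Alternatives were repeated quantile normalization, cyclic loess, median centring, an intensity trend, other choices of probe sets, 1.5-fold and 3-fold thresholds, other covariates and leaving out arrays. Chosen after seeing the data were heart against lung, leaving out single arrays, and the alternatives of the thymus terms. Python 3.11.15, pandas 2.3.3 and matplotlib 3.10.9 were used.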

Additional observations from a re-analysis of the deposited data

Results flagged for a closer look

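The limma test of whether a knock-out effect in thymus differed from that in heart, lung and liver picked out 12 probe sets. For p53−/−, the thymus effect minus that elsewhere was -3.78 for the second and -2.36 for the brightest probe set of Tnnt2, -3.22 for Myh6, -3.08 for Myl2, -2.96 for Actc1, -2.79 for Tnni3 and -1.99 for Myl7. It was -2.18 and -1.21 for the 2 probe sets of Myl3 that do not stand for the gene. For p66−/−, it was -3.20 for Myl2, -1.06 for the brightest of Myl3 and 2.13 for Myl7, the only one of the 12 above 0. On the same terms 13.0% of all probe sets were called for p53−/− and 15.9% for p66−/−. The 3 of 20 for p66−/− are thus near the share of all. Each thymus arm is 1 array that leaves no residual in this fit and is assumed to vary like the other tissues.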

How the results depend on the processing

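No paired analysis was possible because the labels carry no replicate numbers, and pairing of tissues by genotype was through the genotype term of the fit. Counts below are shares of the members' 20 probe sets called, or of the 10 genes. Thymus above liver moved to 50% of genes, against 30% of probe sets, with 1 probe set per gene, and ranged from 5% to 40% as arrays were left out, falling to 5% without the p66−/− and 10% without the WT arrays. Lung above thymus moved to 70% with 1 probe set per gene, against 45%, and ranged from 10% to 60%. The ranges were 95% to 100% for heart above the other tissues, 45% to 65% for lung above liver, 75% to 90% for heart above lung, 0% to 5% for p53−/− against WT and 0% to 0% for p66−/− against WT. The thymus terms called 7 to 10 probe sets for p53−/− and 1 to 4 for p66−/− as another tissue was left out, and 5 for p66−/− after cyclic loess. Myl7 less Myl2 ranged from 6.48 to 6.69 for lung and from 0.66 to 3.47 for thymus, and was 6.34 for lung after repeated quantile normalization. At 1.5-fold, lower probe sets numbered 11 in p53−/− and 4 in p66−/− lung, 9 in p66−/− thymus and 3 in p53−/− liver, and higher ones 1 in p53−/− heart, 1 in p53−/− thymus, 2 in p66−/− thymus and 1 in p66−/− liver. At 3-fold, lower ones numbered 1 in p66−/− heart, 2 in p53−/− lung, 1 in p66−/− thymus and 0 in p66−/− liver, and higher ones 0 in p66−/− heart. Median centring gave 8 lower in p53−/− lung and 0 higher in p66−/− heart, and repeated quantile normalization 1 higher in p53−/− heart. Values that changed sign were all uncalled. In thymus against liver, Mybpc3 was -0.026 after repeated quantile normalization and -0.053 after cyclic loess, and as arrays were left out Mybpc3 ran from -0.086 to 0.22, Myh7 from -0.30 to 0.048, Myl2 from -0.030 to 1.84 and Ttn from -0.0021 to 0.88. In lung against thymus, Myl3 was -0.072 after repeated quantile normalization and ran from -0.30 to 0.45. In heart against lung, Myh7 ran from -0.038 to 0.23. In p53−/− against WT, Myl3 ran from -0.22 to 0.17 and Myl7 from -1.10 to 0.037. In p66−/− against WT, Actc1 ran from -0.67 to 0.088, Myh6 from -0.62 to 0.19, Myl3 from -0.44 to 0.059, Myl7 from -0.31 to 0.78, Tnni3 from -0.55 to 0.21 and Tnnt2 from -0.56 to 0.13. The cause was not tested. Cyclic loess moved the median of an array by up to 0.22 and repeated quantile normalization by up to 0.11. Over the alternatives of the 10 single genes, direction and call held in 150 of 150 cases for heart against the other tissues, 145 of 150 for heart against lung, 140 of 150 for lung against liver, 123 of 150 for thymus against liver and 113 of 150 for lung against thymus.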
